A study of Mus musculus with 11 samples.

Results

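Transcript levels of 10 genes of the BCL2 family were followed across 11 RNA-seq libraries of mouse mammary epithelial cells. The genes were taken as a named list, without a cut on their values but with earlier results of these data known. The list held the pro-survival genes *Bcl2*, *Bcl2l1* and *Mcl1*, the pore-forming effector *Bak1*, its relative *Bok*, and the BH3-only genes *Bcl2l11*, *Bmf*, *Bid*, *Bad* and *Pmaip1*. They are 10 of the 27179 genes in the count tables, and all 10 were among the 15422 genes that passed the filter on low counts (over 0.5 CPM, a read count scaled to the counted reads of its library, in at least 3 libraries). MaSC/basal cells (CD24+CD29hi), LP cells (luminal progenitors, CD24+CD29loCD61+) and ML cells (mature luminal, CD24+CD29loCD61-) had been sorted from wild type virgin FVB/N females labelled as 8 weeks old, with 3 libraries for each population. The mammosphere library came from MaSC/basal cells kept for 1 week without attachment in medium that held EGF, bFGF, insulin, hydrocortisone and B27, and the Comma Dβ library came from an established line of Balb/c mammary epithelium that was derived in mid-pregnancy and carries a βGeo marker. These cultured sample types have 1 library each. Each sorted population is a gated fraction that is enriched for, but not made only of, the named cells. The sort was set to remove cells with CD31, TER-119 or CD45. Even so, the sum of 4 endothelial markers was higher in every MaSC/basal library (39.9 to 84.5 CPM) than in any luminal library (at most 34.2 CPM). *Pecam1*, the gene of CD31, was counted at 18.1 to 39.5 CPM in MaSC/basal libraries and at most 17.4 CPM in luminal ones. Among sorted libraries a sum of 5 fibroblast markers was lowest in LP 1 (187 CPM) and highest in LP 2 (768 CPM). The part of such cells in the differences between populations was not tested.

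The libraries held 19958838 to 75795034 counted reads, and 3 reads in a library correspond to 0.0399 to 0.160 CPM (all CPM values were scaled by TMM, which corrects for differences in RNA composition between libraries). By the labels, batch 1 held replicate 1 of each sorted population and the mammosphere library, batch 2 held MaSC/basal replicates 2 and 3, LP 2 and ML 2, and batch 3 held LP 3, ML 3 and the Comma Dβ library. They also give TruSeq kit version 1 for batch 1 and version 2 for batches 2 and 3. The submitted name of MaSC/basal replicate 1 contains p53, in contrast to a wild type genotype in its labels, and the name of the mammosphere library may join more than 1 culture. Nothing in the labels shows whether replicates came from separate mice, so the p-values measure the spread between these libraries. The sorted populations carried their defining markers: the summed level of *Krt5*, *Krt14*, *Trp63* and *Acta2* was 12427 to 16392 CPM in MaSC/basal and 46.3 to 312 in luminal libraries, that of *Kit*, *Elf5* and *Itgb3* was 1092 to 1377 in LP, and that of *Esr1*, *Pgr* and *Prlr* was 3301 to 5548 in ML. The ML 2 library had the highest LP marker sum of the ML libraries (469 CPM against 260 and 214), and ML 3 had the highest basal marker sum of them (312 CPM against 50.9 and 71.6).

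Proteins of the BCL2 family decide whether the outer membrane of the mitochondrion stays sealed. BCL2, BCL-XL (from *Bcl2l1*) and MCL1 hold back the effectors BAK and BAX, and BH3-only proteins such as BIM (from *Bcl2l11*), BMF, BID, BAD and NOXA (from *Pmaip1*) bind and block the pro-survival proteins or activate the effectors directly. In mammary epithelium the family is known for the removal of luminal cells during involution and for anoikis, the death of epithelial cells that lose their attachment, in which BIM and BMF take part. BMF is held on the cytoskeleton in attached cells, and much of the control of these proteins acts after transcription, which RNA levels do not show.

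The 250 bases before an annotated start are shown for the pro-survival genes, which moved together between MaSC/basal and LP cells, and for *Bok*, which moved the other way. For *Bcl2l1* the window lies before the farthest upstream of its listed starts. The windows of *Bcl2l1* and *Mcl1* lie inside the gene spans given below, so they are not upstream of the whole annotated gene. Sequences are from RefSeq on GRCm38.p6, 5′ to 3′ on the strand of the gene, and 9 of the 10 genes matched an entry. Capitals mark a GC box (GGGCGG on either strand).
Bcl2, chr1:106714291-106714540, minus strand: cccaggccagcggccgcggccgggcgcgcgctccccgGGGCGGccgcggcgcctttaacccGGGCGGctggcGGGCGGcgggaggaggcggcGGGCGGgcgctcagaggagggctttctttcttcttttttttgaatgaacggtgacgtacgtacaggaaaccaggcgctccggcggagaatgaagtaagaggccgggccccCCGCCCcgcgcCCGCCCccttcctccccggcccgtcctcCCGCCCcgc
Bcl2l1, chr2:152831729-152831978, minus strand: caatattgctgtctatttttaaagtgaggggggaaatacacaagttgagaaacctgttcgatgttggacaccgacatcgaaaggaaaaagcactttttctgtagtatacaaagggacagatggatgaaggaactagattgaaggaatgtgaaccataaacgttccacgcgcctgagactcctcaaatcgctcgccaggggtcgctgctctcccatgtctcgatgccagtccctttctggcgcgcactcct
Mcl1, chr3:95658471-95658720, plus strand: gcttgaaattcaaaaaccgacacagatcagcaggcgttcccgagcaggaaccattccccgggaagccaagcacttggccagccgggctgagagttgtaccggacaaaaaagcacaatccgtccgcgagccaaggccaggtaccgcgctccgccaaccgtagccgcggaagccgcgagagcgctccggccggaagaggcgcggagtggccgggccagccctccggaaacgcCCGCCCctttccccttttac
Bok, chr1:93685325-93685574, plus strand: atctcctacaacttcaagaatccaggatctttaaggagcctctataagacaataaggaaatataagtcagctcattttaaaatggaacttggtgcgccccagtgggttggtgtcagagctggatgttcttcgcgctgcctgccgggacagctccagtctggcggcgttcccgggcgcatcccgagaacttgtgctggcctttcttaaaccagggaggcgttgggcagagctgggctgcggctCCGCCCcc
The *Bcl2* window held 7 GC boxes and was 74.8% G and C, the *Mcl1* window held 1 and was 64.4%, the *Bok* window held 1 and was 55.2%, and the *Bcl2l1* window held none and was 47.6%, against a median of 52.4% over all 32851 windows of this length. GC boxes stood in 32.7% of all windows. None of the other motifs searched on both strands was found in these 4 windows, namely CCAAT (33.8% of all windows), TATAAA (12.4%), CACGTG (6.02%), TGANTCA (6.75%), TGACGTCA (1.55%) and GTAAACA (3.17%), and no motif contains another. The sole match to GTAAACA, the FOXO motif, among the windows of the 9 genes lay in *Bcl2l11*.

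Between MaSC/basal and LP cells 7 of the 10 genes differed at an adjusted p under 0.05, against 57.4% of all genes tested. The count by itself is not a result about the family, since most genes differed. By direction, 5 genes were higher in LP (28% of all genes) and 2 were higher in MaSC/basal (29.4% of all genes). All 3 pro-survival genes were on the LP side together with *Bmf* and *Bid*, while *Bak1* and *Bok* were on the MaSC/basal side. The libraries did not overlap for 7 genes, as for 63.9% of all genes. The median log2 fold change of MaSC/basal over LP was -0.52 over the 10 genes and -0.01 over all genes tested. Between MaSC/basal and ML cells 4 genes differed (background 58.7%), namely *Bok* on the MaSC/basal side (28.9% of all genes) and *Bcl2l1*, *Bmf* and *Bid* on the ML side (29.7%), with a median of -0.21 over the 10 genes and -0.01 over all genes. Between LP and ML cells 5 genes differed (background 31.8%), of which *Bcl2* and *Mcl1* were higher in LP (14.3% of all genes) and *Bak1*, *Bok* and *Bad* were higher in ML (17.5%), with a median of -0.15 over the 10 genes and -0.01 over all genes. The libraries did not overlap for 6 genes between MaSC/basal and ML (65.5% of all genes) and for 6 between LP and ML (47.9%). When library batch entered the fit as a replicate block, 7 genes differed between MaSC/basal and LP (background 58.4%), 5 between MaSC/basal and ML (58.9%) and 8 between LP and ML (36.6%). In bulk RNA, fewer cells of a type and less RNA in each cell cannot be told apart.

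**Figure D1:**
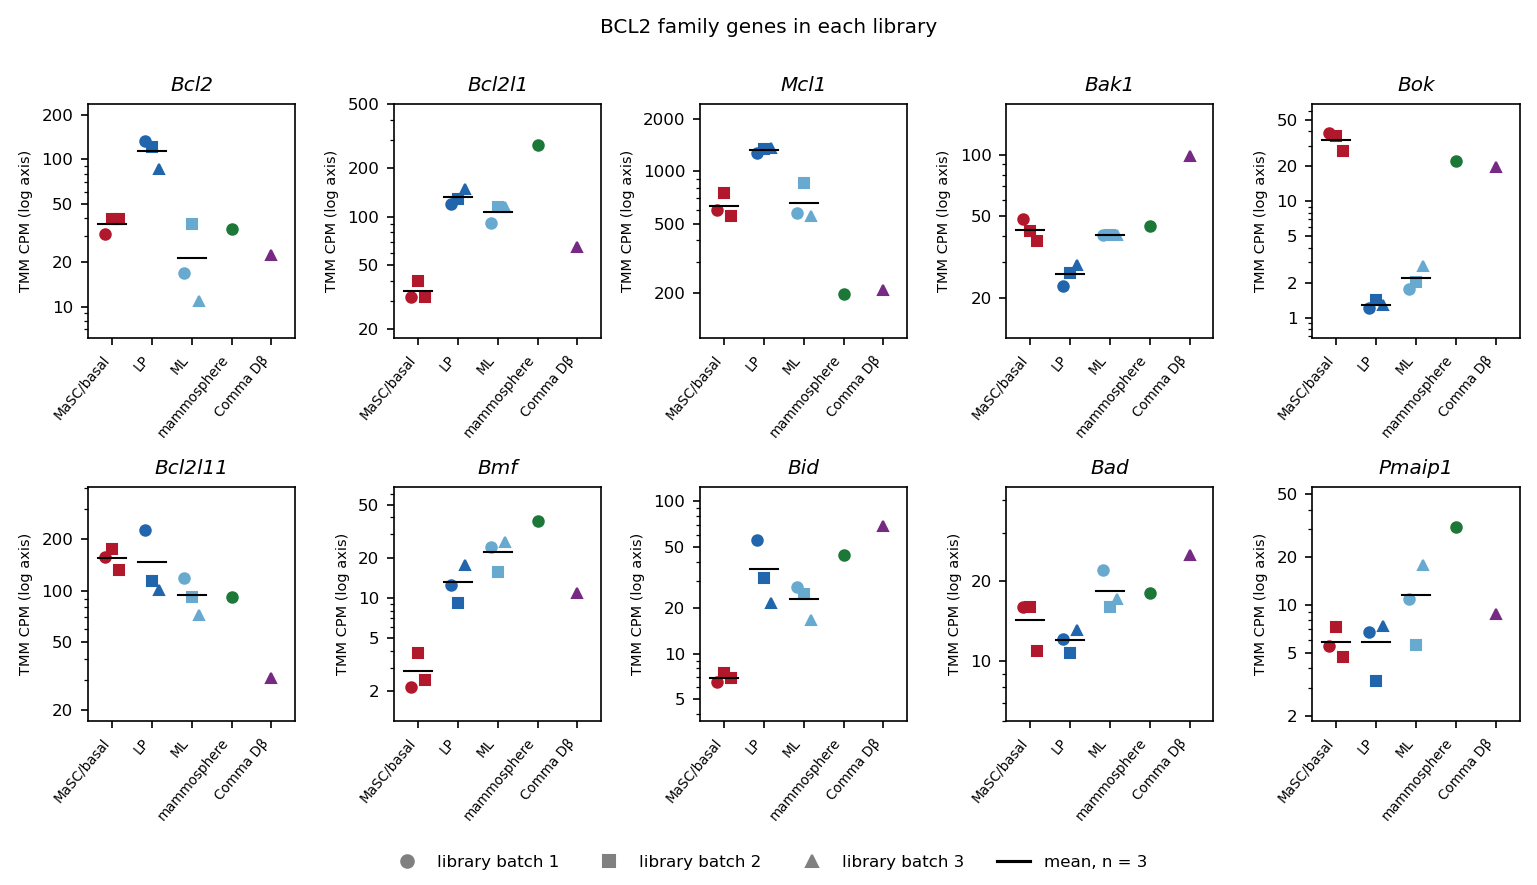
TMM-scaled CPM on a log axis of the 10 genes in each of the 11 libraries, by sample type, with the symbol giving the library batch and the bar the mean of 3 libraries. *Bok* lies at 26.9 to 38.2 CPM in MaSC/basal and at 1.20 to 2.78 CPM in the luminal libraries, and *Bcl2l1* is highest in the mammosphere library.

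Among the pro-survival genes, *Bcl2* (chromosome 1, 106538176 to 106714290, GRCm38.p6), the founding member of the family, stood at 31.1, 39.2 and 39.2 CPM in MaSC/basal replicates 1 to 3, at 132, 121 and 85.5 in LP and at 16.8, 36.6 and 10.98 in ML. All LP libraries were above all others, and the ML range reached into the MaSC/basal range through ML 2. *Bcl2* was 3.10-fold higher in LP than in MaSC/basal (log2 fold change of MaSC/basal over LP -1.63 ± 0.37 SE, adjusted p = 0.00373) and 5.22-fold higher in LP than in ML (2.38 ± 0.38 SE, adjusted p = 0.00198). MaSC/basal and ML did not pass the test (0.75 ± 0.37 SE, adjusted p = 0.102). Without ML 2, the ML library with the highest LP marker sum, that difference was 1.39 (adjusted p = 0.00104) and the one between LP and ML was 3.02. These were the largest of the fits that left out 1 sorted library, which ranged from 0.45 to 1.39 and from 2.08 to 3.02. MaSC/basal and ML were not called in 16 of 17 alternative fits. The part of LP cells in the ML 2 value was not tested. The exons of *Bcl2* share 558 bases, 6.09% of their length in GENCODE M21, with D630008O14Rik on the other strand.

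*Bcl2l1* (chromosome 2, 152758732 to 152833803), which codes for BCL-XL, was measured at 31.8, 40.2 and 31.7 CPM in MaSC/basal, at 120.4, 128 and 148 in LP and at 91.6, 115 and 115 in ML. Both luminal populations lay above the MaSC/basal range, and every LP library was above every ML library, although LP and ML did not pass the test (0.30 ± 0.15 SE, adjusted p = 0.151). *Bcl2l1* was 3.82-fold higher in LP (adjusted p = 4.36e-06) and 3.10-fold higher in ML (adjusted p = 1.07e-05) than in MaSC/basal. Of the 3 pro-survival genes it was the only one called in both luminal populations.

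*Mcl1* (chromosome 3, 95656944 to 95663179) codes for a short-lived pro-survival protein that mammary epithelium needs for its survival. It stood at 596, 753 and 551 CPM in MaSC/basal, at 1273, 1352 and 1367 in LP and at 577, 854 and 553 in ML. LP lay above both other populations, which overlapped each other. The level in LP was 2.10-fold that in MaSC/basal (log2 fold change of MaSC/basal over LP -1.07 ± 0.21 SE, adjusted p = 0.00134) and 2.01-fold that in ML (1.01 ± 0.21 SE, adjusted p = 0.00564). MaSC/basal and ML differed by -0.06 ± 0.20 SE (adjusted p = 0.812).

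Levels of different genes were compared as CPM per kb of exon. On this scale *Mcl1* was the highest of the 10 genes in all 9 sorted libraries. Of the summed level of the 3 pro-survival genes it made up 89.6 to 90.7% in MaSC/basal cells, 84.2 to 84.8% in LP cells and 76.1 to 82.1% in ML cells. The share of *Bcl2l1* was 7.13 to 7.58% in MaSC/basal cells, 11.7 to 13.4% in LP cells and 16.3 to 23.2% in ML cells, so that these ranges did not overlap. The summed level itself was 433 to 465 CPM per kb in LP, 206 to 298 in ML and 177 to 238 in MaSC/basal. These shares describe transcripts and not proteins.

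**Figure D2:**
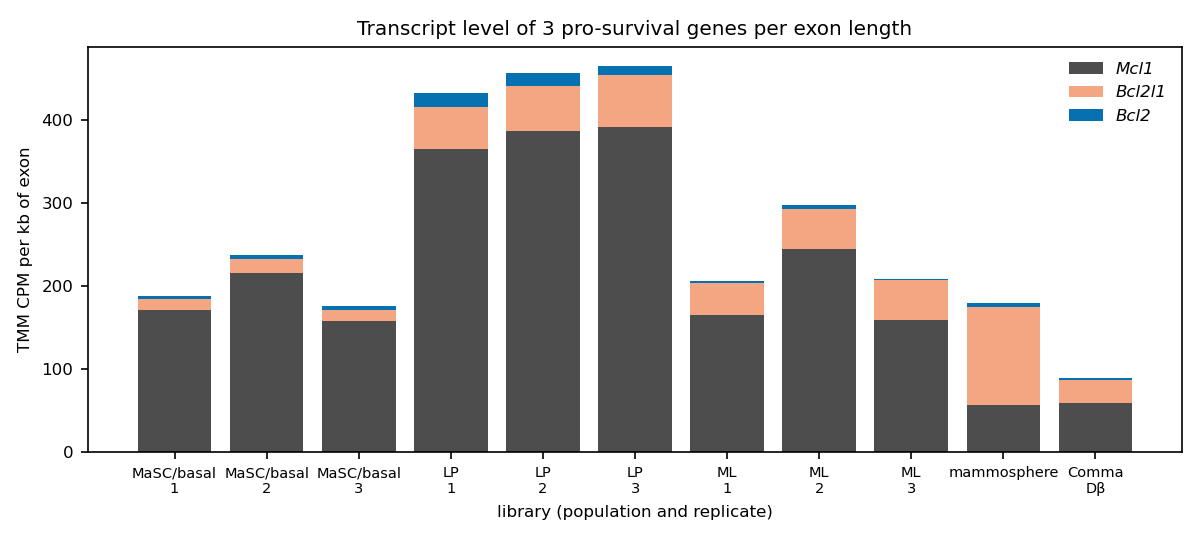
Stacked bars give the TMM-scaled CPM per kb of exon of *Mcl1*, *Bcl2l1* and *Bcl2* in each library, from 0. *Mcl1* makes up most of each bar in the sorted libraries (76.1 to 90.7%), while *Bcl2l1* makes up 66.1% of the mammosphere bar.

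*Bak1* (chromosome 17, 27019812 to 27028627), the gene of the pore-forming effector BAK, showed the reverse order of *Mcl1* across the luminal populations. It stood at 48.5, 42.4 and 37.8 CPM in MaSC/basal, at 22.8, 26.4 and 28.8 in LP and at 40.6, 40.5 and 40.6 in ML. LP lay below both other populations. The level in MaSC/basal was 1.65-fold that in LP (0.72 ± 0.13 SE, adjusted p = 0.00108) and the level in ML was 1.56-fold that in LP (log2 fold change of LP over ML -0.64 ± 0.13 SE, adjusted p = 0.00629). *Bak1* shares 614 exon bases (25.5%) with *Ggnbp1* on the other strand, which was counted at 1.498 to 4.55 CPM across the libraries.

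*Bok* (chromosome 1, 93685575 to 93695770) codes for a protein related to the effectors that can act without them. It was counted at 38.2, 36.0 and 26.9 CPM in MaSC/basal, at 1.20, 1.40 and 1.28 in LP and at 1.75, 2.02 and 2.78 in ML. This was the widest gap among the 10 genes, 25.8-fold between MaSC/basal and LP (log2 fold change 4.69 ± 0.24 SE, adjusted p = 3.67e-07) and 15.6-fold between MaSC/basal and ML (3.96 ± 0.23 SE, adjusted p = 4.92e-07). The luminal values rest on 24 to 152 reads a library, and the difference between LP and ML (-0.73 ± 0.23 SE, adjusted p = 0.0359) was not called in 6 of the 9 fits that left out 1 sorted library. The highest luminal value stood in ML 3, the luminal library with the highest basal marker sum, and without ML 3 the difference was -0.54 (adjusted p = 0.109). LP 2, with a basal marker sum of 153 CPM, had *Bok* at 1.40 CPM. That was below ML 1 and ML 2, whose basal marker sums were 50.9 and 71.6 CPM. The part of basal cells in this difference was not tested. Per kb of exon *Bok* was among the 4 highest of the 10 genes in each MaSC/basal library and the lowest of them in each LP library.

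**Figure D3:**
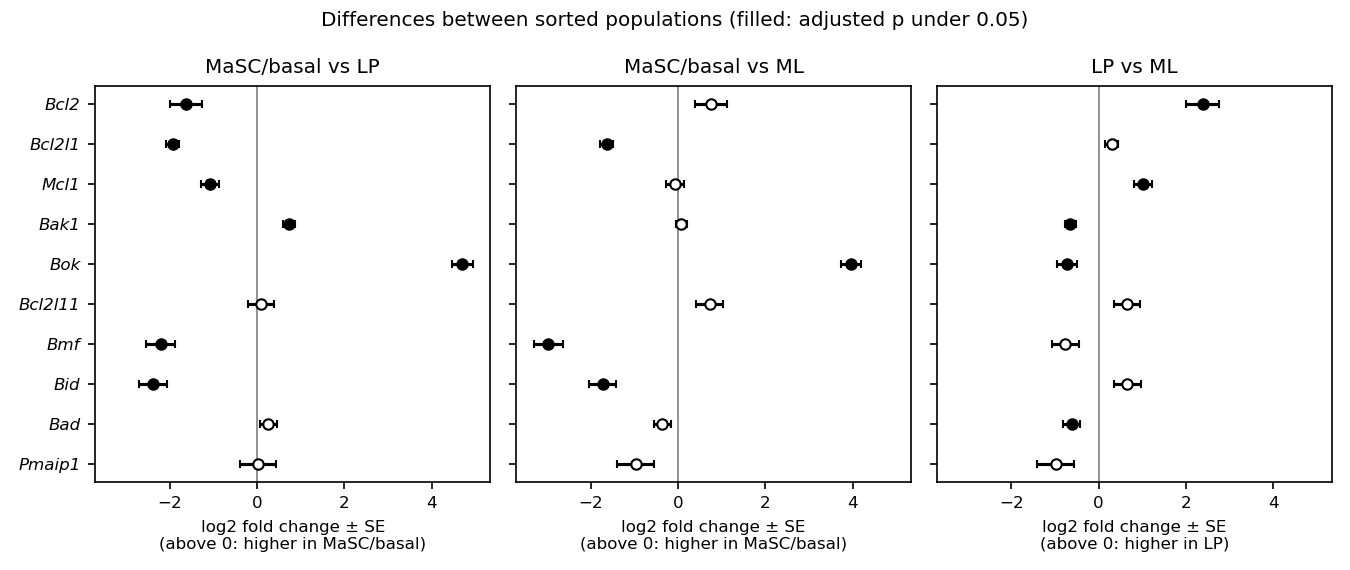
Log2 fold changes with SE of the 10 genes in the 3 comparisons of sorted populations (3 libraries each), with filled points for an adjusted p under 0.05. *Bok* lies farthest to the MaSC/basal side, at 4.69 against LP and 3.96 against ML, and *Bcl2* farthest to the LP side against ML, at 2.38.

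Among the BH3-only genes, *Bmf* (chromosome 2, 118528757 to 118549686) was counted at 2.14, 3.87 and 2.43 CPM in MaSC/basal, at 12.5, 9.12 and 17.6 in LP and at 24.2, 15.7 and 26.3 in ML. Both luminal populations lay above the MaSC/basal range and overlapped each other. *Bmf* was 4.63-fold higher in LP (adjusted p = 2.28e-04) and 7.84-fold higher in ML (adjusted p = 3.12e-05) than in MaSC/basal. LP and ML did not pass the test (-0.76 ± 0.31 SE, adjusted p = 0.0841), nor with batch as a replicate block (adjusted p = 0.0531). They did without LP 3 (adjusted p = 0.0446) or without ML 2 (adjusted p = 0.0415). In 14 of 17 alternative fits the difference was not called, and leaving out 1 sorted library gave -1.02 to -0.53.

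*Bid* (chromosome 6, 120893119 to 120917062), whose protein links death receptors to the mitochondrion after cleavage by caspase-8, stood at 6.48, 7.44 and 6.90 CPM in MaSC/basal, at 55.4, 31.3 and 21.6 in LP and at 27.3, 24.6 and 16.6 in ML. All luminal libraries were above the MaSC/basal range. The level was 5.21-fold higher in LP (adjusted p = 1.37e-04) and 3.30-fold higher in ML (adjusted p = 9.44e-04) than in MaSC/basal. LP and ML overlapped, and their difference did not pass the test (0.66 ± 0.31 SE, adjusted p = 0.127). It did with batch as a replicate block (0.60 ± 0.19 SE, adjusted p = 0.0410) and without LP 3 (0.93, adjusted p = 0.0330). In 15 of 17 alternative fits it was not called, and leaving out 1 sorted library gave 0.23 to 0.93. *Bid* shares 628 exon bases (17.7%) with *Bcl2l13* on the other strand. *Bcl2l13* was higher in LP than in MaSC/basal by 1.64-fold (adjusted p = 0.00387). It was not called between MaSC/basal and ML (adjusted p = 0.137) or between LP and ML (adjusted p = 0.0796). In the mammosphere and Comma Dβ libraries it was at 85.7 and 86.4 CPM, within the MaSC/basal range of 74.8 to 87.2. The part of *Bcl2l13* in the differences of *Bid* was not tested.

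*Bcl2l11* (chromosome 2, 128126038 to 128162547), the gene of BIM, was at 158, 175 and 133 CPM in MaSC/basal, at 225, 113 and 100.4 in LP and at 119, 91.4 and 71.9 in ML. Its LP libraries spread from below to above the MaSC/basal range, and no comparison passed the test (adjusted p = 0.827 for MaSC/basal with LP, 0.0598 with ML, and 0.129 for LP with ML). With batch as a replicate block it was higher in MaSC/basal than in ML (0.63 ± 0.21 SE, adjusted p = 0.0333) and higher in LP than in ML (0.59 ± 0.20 SE, adjusted p = 0.0476). Without LP 1 the difference between MaSC/basal and ML passed the test as well (0.73, adjusted p = 0.00967). The same held without LP 3 (0.73, adjusted p = 0.0443) and without ML 1 (0.94, adjusted p = 0.0386). In 10 of 17 alternative fits this difference was not called, and leaving out 1 sorted library gave 0.57 to 0.94. Per kb of exon *Bcl2l11* was the highest of the 5 listed BH3-only genes in all 9 sorted libraries. It held 30.2 to 38.1% of their summed level in ML, 42.5 to 51.1% in LP and 64.9 to 66.2% in MaSC/basal. *Bik*, a BH3-only gene outside the list, had means of 31.9 CPM per kb in ML, 29.0 in LP and 0.67 in MaSC/basal. The means of *Bcl2l11* were 18.6, 29.1 and 30.8.

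*Bad* (chromosome 19, 6941861 to 6951905), whose protein is switched off by growth factor signalling through phosphorylation, stood at 15.9, 16.0 and 10.9 CPM in MaSC/basal, at 12.1, 10.8 and 13.1 in LP and at 21.8, 16.0 and 17.0 in ML. ML was 1.53-fold above LP (log2 fold change of LP over ML -0.61 ± 0.20 SE, adjusted p = 0.0390), a call that was lost in 7 of the 9 fits that left out 1 sorted library. *Bad* shares 524 exon bases (20.5%) with *Gpr137* on the other strand, which was at 33.7, 23.4 and 36.8 CPM in ML and at 11.9 to 18.5 in LP, and reads from these bases cannot be told apart without strand. How strand was treated in counting is not given in the sources used here. The part of *Gpr137* in the difference of *Bad* was not tested.

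*Pmaip1*, the gene of the MCL1 partner NOXA, was at 5.51, 7.30 and 4.67 CPM in MaSC/basal, at 6.77, 3.31 and 7.32 in LP and at 10.9, 5.57 and 17.9 in ML. The populations overlapped and no comparison passed the test (adjusted p = 0.971, 0.0708 and 0.103). It was higher in ML than in LP with batch as a replicate block (log2 fold change of LP over ML -0.91 ± 0.30 SE, adjusted p = 0.0450). Without ML 2 it was higher in ML than in MaSC/basal (-1.30, adjusted p = 0.0113) and than in LP (-1.33, adjusted p = 0.0217). Leaving out 1 sorted library gave -1.30 to -0.50 for MaSC/basal over ML and -1.33 to -0.52 for LP over ML. Each of these differences was not called in 15 of 17 alternative fits.

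*Bcl2l11* and *Bid* were highest in batch 1 and lowest in batch 3 in both LP and ML. Each batch held 1 library of either population, so that batch cannot be told apart from mouse or sort. Batch 1 also differed from the others in the version of the TruSeq kit, and the part of the kit was not tested. Within batches, each of the 10 genes differed in the same direction between LP and ML in all 3 pairs, as did 72% of all genes tested. The log2 difference of LP over ML in batches 1, 2 and 3 was 0.93, 0.31 and 0.48 for *Bcl2l11* and 1.02, 0.35 and 0.38 for *Bid*. For *Pmaip1* it was -0.69, -0.74 and -1.29, and for *Bcl2* it was 2.98, 1.72 and 2.96. MaSC/basal had no library in batch 3. Of its libraries, that of batch 1 had the lowest *Bid* (6.48 CPM against 7.44 and 6.90 in batch 2). Its *Bcl2l11* (158 CPM) lay between the batch 2 values of 175 and 133.

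Over the 9 sorted libraries, the genes whose log2 CPM was most like that of *Bcl2* were *St6galnac6*, *Sestd1* and *Ppp2r3a* (Pearson's r of 0.99 for each), and those most like *Bcl2l11* were *Nop53* (0.95), E230013L22Rik (0.94) and *Noct* (0.93). The points share 3 populations and 3 batches, and r is given as a description.

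Detached culture was represented by the mammosphere library, for which no test was made, since the culture has no replicate. This library also differed from freshly sorted MaSC/basal cells in time in culture and in medium, which cannot be told apart from detachment here. Against the mean of the MaSC/basal libraries 5 of the 10 genes were past 2-fold (39.7% of all genes tested): *Bmf*, *Bcl2l1*, *Bid* and *Pmaip1* were higher (19.7% of all genes) and *Mcl1* was lower (20% of all genes). The median log2 difference was 0.22 over the 10 genes and -0.01 over all genes, and 8 of the 10 genes were outside the MaSC/basal range (82.8% of all genes). *Bmf* was at 37.8 CPM (95% Poisson interval 36.0 to 39.6) against 2.14 to 3.87, *Bcl2l1* at 280.4 (275 to 285) against 31.7 to 40.2, *Bid* at 44.2 (42.2 to 46.2) against 6.48 to 7.44 and *Pmaip1* at 31.0 (29.3 to 32.6) against 4.67 to 7.30. *Mcl1* was at 197 CPM (193 to 201) against 551 to 753. The intervals cover counting error only, and the spread between cultures is unknown.

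On the log2 scale with a prior count of 2, these differences were 3.77 for *Bmf*, 3.03 for *Bcl2l1*, 2.66 for *Bid*, 2.42 for *Pmaip1* and -1.67 for *Mcl1*, that is, ratios of 13.7, 8.14, 6.34 and 5.37 and a 3.19-fold lower level. Against MaSC/basal 1 alone, which shared the batch of the mammosphere library, the ratios of CPM were 17.7 for *Bmf*, 8.80 for *Bcl2l1*, 6.82 for *Bid*, 5.61 for *Pmaip1* and 0.330 for *Mcl1*. *Bcl2l1*, *Bmf* and *Pmaip1* also exceeded all 9 sorted libraries (19.8% of all genes did), and *Mcl1* was below all of them (19.3% of all genes). The level of *Bid* lay within the LP range, which reached 55.4 CPM.

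The order of *Mcl1* and *Bcl2l1* in the mammosphere library was the reverse of that in the sorted libraries. *Bcl2l1* stood at 118 CPM per kb of exon and *Mcl1* at 56.4, or 66.1% and 31.5% of the summed level of the 3 pro-survival genes. That sum, 179 CPM per kb, lay within the MaSC/basal range of 177 to 238. Whether the 2 differences are linked was not tested. *Bcl2* was at 33.5 CPM, within the MaSC/basal range of 31.1 to 39.2. *Bcl2l1* has the neighbour *Cox4i2*, whose RefSeq span overlaps it with no shared exon base in GENCODE M21, and *Cox4i2* was at 8.84 CPM in the mammosphere library against 0.81 to 1.20 in MaSC/basal.

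The other genes stayed within 2-fold. *Bcl2l11* was at 92.2 CPM against 133 to 175 in MaSC/basal (log2 difference -0.74), and *Bok* was at 22.3 CPM against 26.9 to 38.2 (-0.58), which was still above every luminal library. *Bak1* (45.1 CPM, 0.08) lay within the MaSC/basal range, and *Bad* (18.0 CPM, 0.36) lay above it. *Bid* thus made up the largest share of the summed level per kb of the listed BH3-only genes in the mammosphere library, 31.6%. It was followed by *Bcl2l11* with 24.8%, *Bad* with 16.8%, *Pmaip1* with 15.8% and *Bmf* with 11.04%.

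Markers of other cell types moved with the culture. The sum of 5 fibroblast markers was 1730 CPM against 407 to 536 in MaSC/basal (4 of 5 above the MaSC/basal range and 1 below). That of 5 skeletal muscle markers was 83.6 against 2.32 to 3.56 (5 of 5 above). That of 6 immune markers was 40.3 against 12.0 to 14.5. Of these, 3 of 6 were above and 2 were below, with *Ptprc* below at 0.27 CPM and *Cd68* alone at 23.6 CPM. The endothelial sum was 10.3 against 39.9 to 84.5 (4 of 4 below), and the cycling sum was 235 against 441 to 563 (4 of 4 below). The luminal marker sum was 2120 against 734 to 913 (2 of 3), and the basal marker sum was 3273 against 12427 to 16392 (4 of 4 below). The part of such cells in the mammosphere values was not tested.

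**Figure D4:**
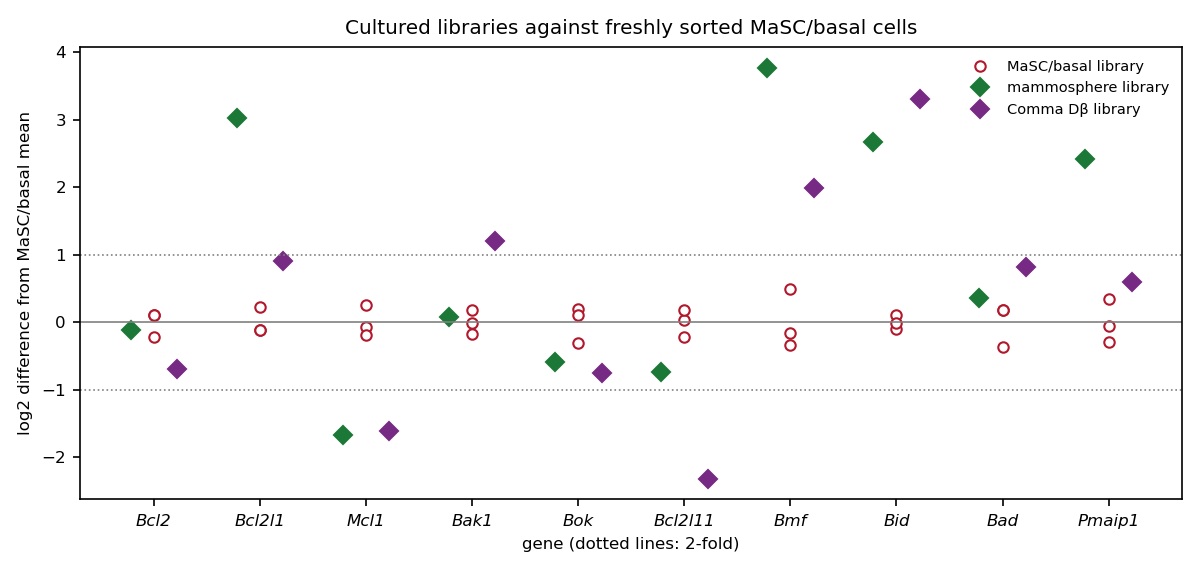
Log2 difference of TMM-scaled CPM (prior count 2) from the mean of the MaSC/basal libraries, for the mammosphere library, the Comma Dβ library and each of the 3 MaSC/basal libraries. In the mammosphere library *Bmf* (3.77) and *Bcl2l1* (3.03) lie highest and *Mcl1* lowest (-1.67), and in the Comma Dβ library *Bid* lies highest (3.31) and *Bcl2l11* lowest (-2.31).

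In the Comma Dβ library, also 1 sample without a test, 5 of the 10 genes were past 2-fold of MaSC/basal (41.7% of all genes tested), with a median log2 difference of 0.71 over the 10 genes and 0.02 over all genes, and all 10 were outside the MaSC/basal range (84.3% of all genes). *Bid* was at 69.3 CPM (log2 difference 3.31), *Bmf* at 10.9 (1.98) and *Bak1* at 98.9 (1.21), all above MaSC/basal (16.9% of all genes were past 2-fold in this direction). *Bcl2l11* was at 31.0 CPM (-2.31) and *Mcl1* at 206 (-1.61), both below (24.8% of all genes). *Bak1*, *Bid* and *Bad* (24.8 CPM) exceeded all 9 sorted libraries (26.7% of all genes did), and *Mcl1* and *Bcl2l11* were below all of them (27.1%). Without TMM scaling *Bcl2l1*, at 64.6 CPM, was past 2-fold as well (1.20 in place of 0.91, and 1.02 without MaSC/basal 2), and so was *Bad* (1.11 in place of 0.82).

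The pro-survival sum of the line was 89.2 CPM per kb, the lowest of the 11 libraries, with 66.2% from *Mcl1* and 30.6% from *Bcl2l1*. Of the sum of the listed BH3-only genes, *Bid* held 55.9% and *Bcl2l11* 9.39%. The line differed from MaSC/basal in strain, stage and culture, which cannot be told apart here, and marker sums moved with them. The sum was 1330 CPM against 441 to 563 for cycling markers (4 of 4 above the MaSC/basal range). For fibroblast markers it was 2045 against 407 to 536. Of these, 3 of 5 were above the range and 2 were below, *Dcn* at 91.5 CPM and *Lum* at 0.68. For basal markers the sum was 1494 against 12427 to 16392 (4 of 4 below). For luminal markers it was 117 against 734 to 913 (3 of 3 below). The part of these markers in the values of the line was not tested.

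The other genes of the pathway, a list of 49 of which 45 were tested, gave the surroundings of these values. Between MaSC/basal and LP 13 were higher and 14 lower in MaSC/basal, between MaSC/basal and ML 12 were higher and 14 lower in MaSC/basal, and between LP and ML 9 were higher and 10 lower in LP. Over all genes tested, the shares were 29.4% and 28% for MaSC/basal and LP, 28.9% and 29.7% for MaSC/basal and ML, and 14.3% and 17.5% for LP and ML. The BH3-only gene *Bik* was at 18.3 to 34.0 CPM in LP and 25.9 to 36.0 in ML but at 0.58 to 0.72 in MaSC/basal (log2 fold change of MaSC/basal over LP -5.42 and over ML -5.56, adjusted p = 4.55e-07 and 3.20e-07), with 11.3 in the mammosphere library and 5 reads in Comma Dβ. The family member *Bcl2l14* was at 60.5 to 99.9 CPM in ML and 31.7 to 38.5 in LP but at 0.78 to 0.94 in MaSC/basal, and was higher in ML than in LP (log2 fold change of LP over ML -1.25, adjusted p = 0.00145).

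*Bax*, the other pore-forming effector, was at 42.0 to 52.1 CPM in ML, with 29.2 to 34.7 in LP and 22.5 to 37.2 in MaSC/basal. It was 1.60-fold higher in ML than in MaSC/basal (adjusted p = 0.00895) and 1.47-fold higher in ML than in LP (adjusted p = 0.0426). *Bcl2l2*, the gene of BCL-W, was higher in ML as well, by 1.41-fold over MaSC/basal (adjusted p = 0.0190) and 1.38-fold over LP (adjusted p = 0.0446). *Bbc3*, the gene of PUMA, was 1.95-fold higher in MaSC/basal than in LP (adjusted p = 0.0131). *Bcl2a1b*, at 1.12 to 4.55 CPM in LP, shares near-identical copies with *Bcl2a1a* and *Bcl2a1d*, so its counts are uncertain, and *Bcl2a1a*, *Bcl2a1d*, *Bcl2l10* and *Hrk* did not pass the filter.

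Of the further related genes, *Bcl2l15* was 7.97-fold higher in LP than in MaSC/basal (adjusted p = 4.18e-05) and 3.28-fold higher in LP than in ML (adjusted p = 0.00404), and *Bcl2l12* was lower in LP than in MaSC/basal (0.68, adjusted p = 0.0314) and than in ML (-0.70 for LP over ML, adjusted p = 0.0490). *Becn1*, an autophagy gene, was 1.52-fold higher in ML than in MaSC/basal (adjusted p = 6.76e-04) and 1.24-fold higher in LP than in MaSC/basal (adjusted p = 0.0258).

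*Bnip3* and *Bnip3l*, whose proteins mark mitochondria for autophagy and are known targets of the hypoxia response, stood out in the mammosphere library. *Bnip3* was at 230.1 CPM there, against 4.45 to 9.52 in the 9 sorted libraries and 14.8 in Comma Dβ. *Bnip3l* was at 408 CPM, against 50.7 to 78.6 in the sorted libraries and 61.0 in Comma Dβ. The log2 differences from MaSC/basal were 5.17 and 2.76.

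**Figure D5:**
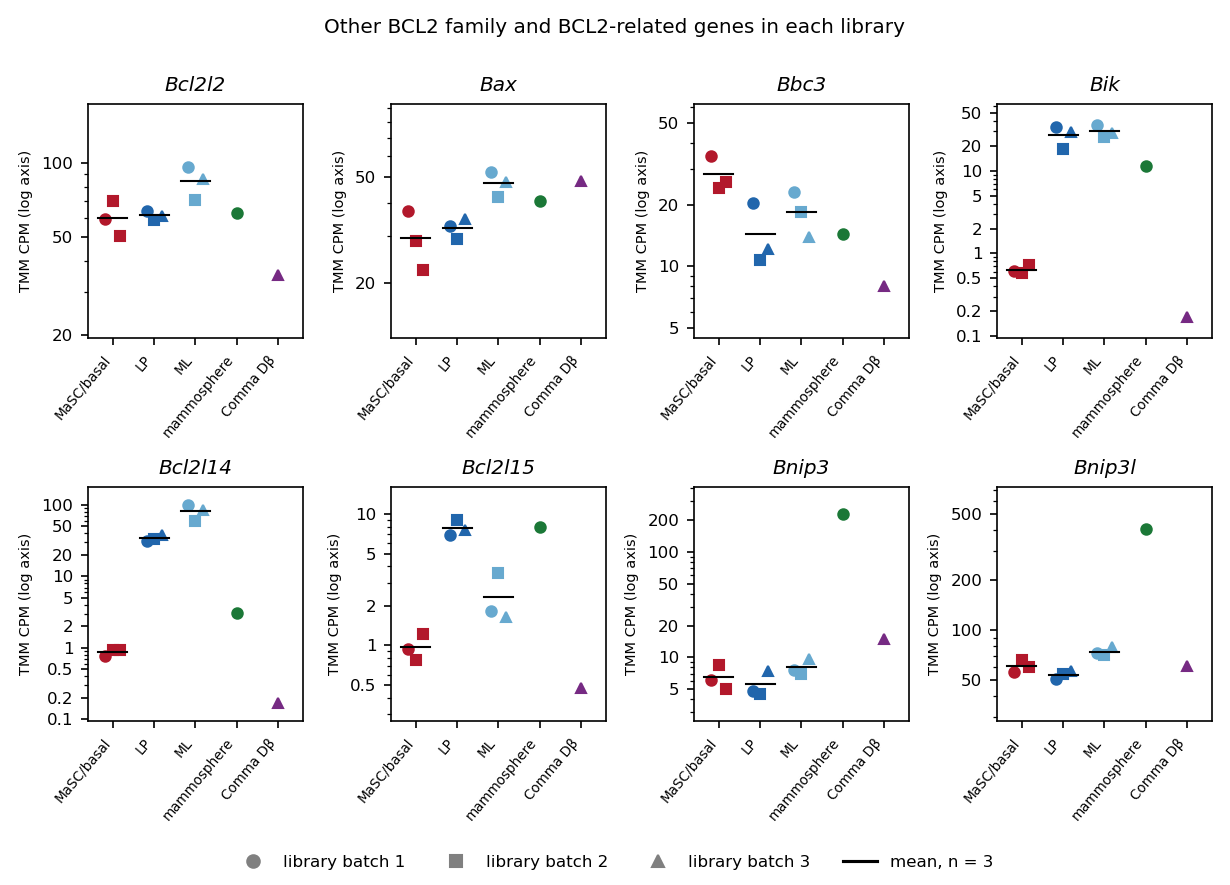
TMM-scaled CPM on a log axis of 8 further family or related genes in each library, with the symbol giving the library batch and the bar the mean of 3 libraries. *Bik* and *Bcl2l14* lie under 1 CPM in MaSC/basal and above 18 CPM in the luminal libraries, and *Bnip3* reaches 230.1 CPM in the mammosphere library.

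Beyond the family, the largest differences among caspases and their inhibitors, death receptor genes and regulators were named by a rule of size. *Birc3*, an inhibitor of apoptosis, had a mean of 488 CPM in LP against 97.1 in MaSC/basal (log2 fold change of MaSC/basal over LP -2.33, adjusted p = 3.21e-05) and 238 in ML (1.04 for LP over ML, adjusted p = 0.0110). *Trp73*, a p53 relative, had a mean of 14.6 CPM in MaSC/basal (6.63 to 20.2) and 0.0857 in LP (0.0353 to 0.168). The LP values lie near the level of 3 reads (0.0562 to 0.160 CPM in these libraries), so the size of this gap is uncertain. *Ripk1*, a kinase of death receptor signalling, had a mean of 276 CPM in MaSC/basal, above 94.9 in LP (1.54, adjusted p = 2.85e-04) and 110.3 in ML (1.33, adjusted p = 6.79e-04), whereas *Fadd*, the adaptor of the same receptors, had 4.53 CPM in MaSC/basal, below 12.9 in LP (-1.51, adjusted p = 1.51e-04) and 10.2 in ML (-1.17, adjusted p = 7.23e-04). *Casp9*, the caspase activated after cytochrome c release, was highest in ML among the sorted populations, with 27.7 CPM against 16.5 in LP (log2 fold change of LP over ML -0.74, adjusted p = 0.00630) and 9.47 in MaSC/basal (-1.55 for MaSC/basal over ML, adjusted p = 1.76e-05). The rule also named *Birc5*, *Dynll1* and *E2f1*, higher in MaSC/basal than in a luminal population, *Fas* and *Ddit3*, higher in LP than in ML, and *Casp8*, higher in ML than in LP. The cycling marker sum was 441 to 563 CPM in MaSC/basal and 64.7 to 86.5 in luminal libraries (4 of 4 markers lower), and its part in the differences of the cell cycle genes *Birc5* and *E2f1* was not tested.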

How the data were processed

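RNA-seq libraries (11) were analysed from their deposited count tables. The authors mapped single-end reads to the mm10 build (Rsubread), counted them on Entrez genes (featureCounts) and deposited the raw counts of 27179 genes with exon lengths. The submitters' processing notes also name CASAVA 1.8.0, edgeR 3.6.2 and limma 3.20.5. How strand and multiply mapped reads were treated is not given in the sources used here. The labels name TruSeq kit version 1 for batch 1 and version 2 for the others.

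Samples were grouped by their labels. In R 4.3.3 with edgeR 4.0.16, genes over 0.5 CPM in at least 3 libraries were kept and scaled by TMM. All 11 libraries entered a quasi-likelihood fit with 1 mean for each of the 5 sample types and no batch term, with Benjamini-Hochberg adjustment over 15422 genes. SE is the size of the log2 fold change divided by the square root of F. The mammosphere and Comma Dβ libraries were compared with the MaSC/basal mean on log2 CPM (prior count 2) without a test, at a threshold of 2-fold. Scripts were tested on simulated data. LP and ML libraries with the same number share a batch in the labels, which pairs them. The deviations from the group means of such pairs had a correlation of 0.320, 0.313 and 0.526, and batch was added as a replicate block in an alternative fit. MaSC/basal libraries correlated with same-batch luminal libraries at -0.118 to 0.289. Other alternatives were DESeq2 1.42.0, limma voom (limma 3.58.1), other scaling and filters, the 9 sorted libraries alone and leaving out each sorted library.

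The named genes were the 10 members, all further family genes of a list by role, and from each of the lists of caspases, death receptors and regulators the 2 genes with the largest called change in each comparison, and for *Bcl2* and *Bcl2l11* the 3 genes with the highest correlation over the sorted libraries. The members and lists were chosen with earlier results of these data known. Counted reads (19958838 to 75795034 a library) set the precision, and floors and intervals cover counting error only, since reads carry no molecular identifiers.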

Additional observations from a re-analysis of the deposited data

How the results depend on the processing

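The 7 genes called between MaSC/basal and LP cells numbered 7 in all 18 alternatives, and those called between MaSC/basal and ML cells numbered 4 to 6 (4 in the main analysis). Between LP and ML cells the count was less stable: 5 of the 10 genes were called, 8 with batch as a replicate block and 3 at an FDR under 0.01, and 3 to 6 when 1 sorted library was left out. The count of all genes called between LP and ML was 4899, with 2343 at an FDR under 0.01 and 3074 to 5141 when 1 sorted library was left out. For single genes, 470 of the log2 fold changes under the alternatives kept direction and side of the threshold, 18 gained and 14 lost a call, and 8 changed sign. The block added *Bcl2l11* between MaSC/basal and ML and *Bcl2l11*, *Bid* and *Pmaip1* between LP and ML, and changed no other call.

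The sign changes came from leaving out 1 library and concerned differences near 0 that were not called: *Bcl2l11* (-0.13 to 0.53) and *Pmaip1* (-0.29 to 0.22) between MaSC/basal and LP, and *Mcl1* (-0.20 to 0.17) and *Bak1* (-0.018 to 0.17) between MaSC/basal and ML. Between LP and ML, *Bok* was not called with limma voom (adjusted p = 0.163) or without MaSC/basal 2, LP 1, LP 2, LP 3, ML 2 or ML 3 (0.0511, 0.110, 0.0761, 0.0796, 0.0522 and 0.109), and *Bad* was not called without MaSC/basal 1 or 2, LP 1, 2 or 3, or ML 1 or 3 (0.0513, 0.0526, 0.0995, 0.137, 0.0620, 0.174 and 0.0634). Without TMM scaling the median of all genes shifted by 0.15 between MaSC/basal and LP and by -0.17 between LP and ML, and *Bmf* was called between LP and ML. The cause of these changes was not tested.

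In the mammosphere library 5 genes were past 2-fold under all 7 alternatives, and in the Comma Dβ library 5 to 7 under 6. With 3 libraries a population and 1 for each culture, modest differences such as those of *Bad* or *Pmaip1* rest on few samples. *Bok* in luminal cells is limited by depth, at 24 reads in LP 3.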
